A study of Mus musculus with 12 samples.

Results

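The response of A17.2 cells to IL1b and IFNg was followed by RNA-seq of poly(A) RNA. A17.2 cells are MC38CEA cells, a mouse colon adenocarcinoma line made to carry human carcinoembryonic antigen, that were transduced with a lentiviral pLKO vector encoding an shRNA against mouse *Adam17* and kept as a puromycin-selected pool. The members are the 6 libraries of these cells among the 12 libraries of the series, 3 from cells left non-treated and 3 from cells that received human recombinant IL1b and mouse recombinant IFNg, each at 10 ng/ml, for 6 h in DMEM with 5% FBS. The other 6 libraries come from MC38CEA cells with a control shRNA, non-treated or with the same cytokines, and the submitters' notes call that control vector cytotoxic and prone to loss of its cassette. The A17.2 libraries with and without cytokines share the vector, the shRNA and the selection, and no untransduced cells were analysed here. The cytokines were given together, so their separate parts in a change cannot be told apart. The labels number the libraries as biological replicates 1, 2 and 3 without saying whether these were separate cultures, and p-values therefore measure the spread between these libraries.

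IFNg signals through its receptor and the JAK1 and JAK2 kinases to transcription factors of the STAT family, which bind GAS elements in promoters and switch on *Irf1* and a large set of genes for antigen presentation and cell-autonomous defence. IL1b signals through the IL1 receptor, MYD88 and IRAK kinases to NF-kB, a family of transcription factors that drive chemokine, cytokine and feedback genes. Many inflammatory genes, among them *Nos2*, are known to need STAT and NF-kB input together for full expression in mouse cells.

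The 6 libraries held between 24130576 and 31854029 counts assigned to genes. Levels are given as counts per 1000000 (CPM) scaled by TMM factors, always in the order of replicates 1, 2 and 3, and they are not divided by transcript length. The targeted gene, *Adam17* (chr12:21323509-21373632, mm10), was at 30.8, 29.9 and 27.7 CPM in the non-treated A17.2 libraries and at 52.3, 42.9 and 39.5 CPM with cytokines, against 76.1, 68.4 and 76.4 CPM and 129, 103 and 95.5 CPM in the control shRNA libraries. All 6 A17.2 libraries lay below all 6 control libraries. Markers of intestinal epithelium were under 1 CPM in every A17.2 library (8 of 8 markers, *Cdx1* and *Cdx2* among them, summed level 0.471 to 1.31 CPM), so the labelled colon origin is not visible in these genes. Markers of T and NK cells, B cells and endothelium summed to less than 1 CPM in each library. Those of macrophages summed to 4.32 to 7.21 CPM in the non-treated and 3.99 to 8.28 CPM in the treated libraries, and those of fibroblasts to 478 to 927 and 724 to 1090 CPM. Most of the fibroblast sum was *Col3a1* (438, 711 and 839 CPM in non-treated and 641, 843 and 1008 CPM in treated libraries), while *Lum* was under 1 CPM in every library and *Dcn* rose by 1.43 ± 0.22 (adjusted p = 0.000218, 0.147 without the block). In bulk RNA, a change in the share of cells that express a gene and a change in its level per cell cannot be told apart.

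Cytokines changed genes in both directions in A17.2 cells. Of 15649 genes tested, 1665 rose (10.6%) and 1086 fell (6.94%) at an adjusted p below 0.05 (edgeR, with the replicate number as a block). The 2 directions differed in size. Among the genes that rose, 731 changed at least 2-fold and 178 at least 8-fold, and the median change was 0.84 on the log2 scale. Among those that fell, 90 changed at least 2-fold and 3 at least 8-fold, and the median was -0.43. The genes that rose at least 2-fold took 1.47% to 1.81% of all CPM in the non-treated libraries and 6.75% to 8.6% with cytokines. For the genes that fell at least 2-fold these shares were 0.0907% to 0.106% and 0.0367% to 0.044%. The 3 treated and 3 non-treated libraries did not overlap for 1166 of the genes that rose and 560 of those that fell, against 17.1% of all genes tested.

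**Figure D1:**
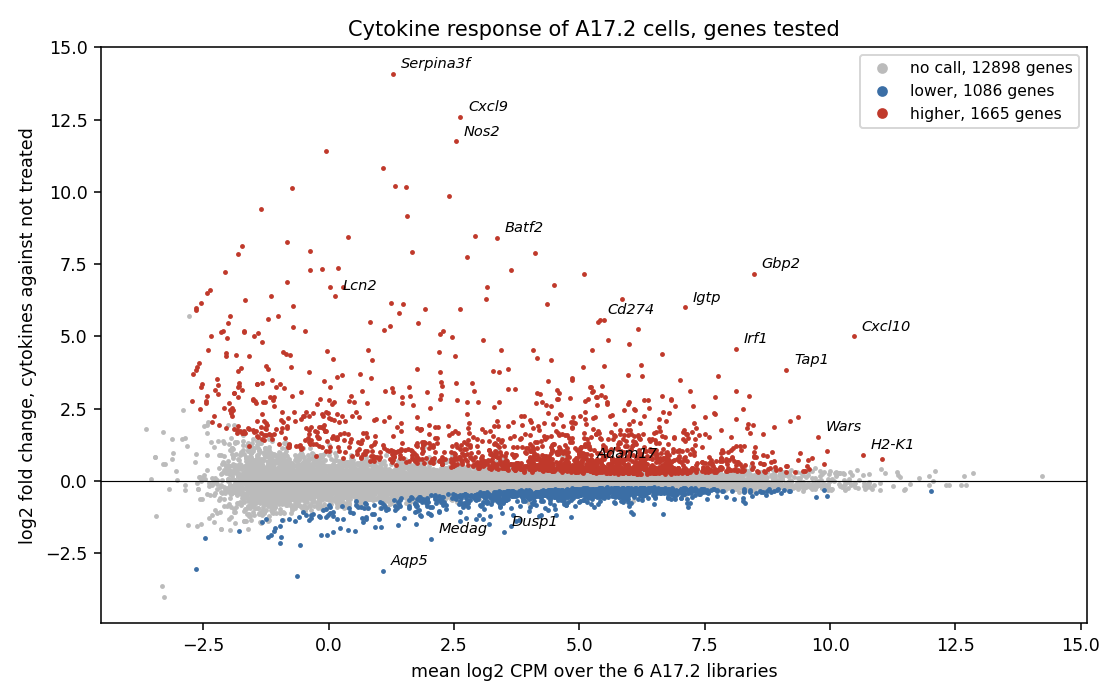
Log2 fold change with cytokines (y axis) against the mean log2 CPM over the 6 A17.2 libraries (x axis) for the 15649 genes tested. Red points rose (1665), blue points fell (1086) and grey points were not called. Genes that rose reach log2 14.1 (*Serpina3f*), while 6 blue points lie below -2.

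The counts depend on 2 choices. Without the replicate block, 602 genes rose and 65 fell, all of them among the calls above, and scaling by library totals alone gave 1408 that rose and 2673 that fell, which moves the share of calls that rose from 60.5% to 34.5%. The small falls thus depend on the block and the scaling, whereas the genes described in the following paragraphs passed in every alternative fit in which they were tested, except a test against a 2-fold minimum, unless the text says otherwise. The log2 fold changes of the 3 replicate pairs correlated across the called genes with r between 0.947 and 0.956, as a description, since the calls rest on the same libraries.

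Risen genes are shown first by 6 examples, whose promoters follow. *Irf1*, the transcription factor that relays IFNg signals to later genes, was at 57.1, 48.4 and 66.5 CPM in non-treated cells and at 1456, 1312 and 1336 CPM with cytokines (log2 fold change 4.58 ± 0.16 SE, adjusted p = 1.62e-11). *Gbp2*, a guanylate-binding protein that attacks the vacuoles of intracellular pathogens, went from 27.2, 20.1 and 45.8 CPM to 4326, 4359 and 4340.5 CPM (7.16 ± 0.30, adjusted p = 1.25e-10). Its 3 treated libraries were almost level with each other. *Cxcl10*, a chemokine that draws activated T cells through CXCR3, went from 233, 201 and 337 CPM to 9356, 7609 and 7499 CPM (5.00 ± 0.20, adjusted p = 7.66e-11). *Gbp5* went from 2.15, 1.68 and 5.66 CPM to 387, 394 and 469 CPM (7.16 ± 0.29, adjusted p = 8.05e-11). *Serpina3g*, a serine protease inhibitor known to be induced by IFNg in mouse cells, had 2 reads in the 3 non-treated libraries together and reached 57.4, 45.7 and 42.6 CPM. *Ifit1*, an antiviral protein that binds foreign RNA, went from 34.2, 32.4 and 69.8 CPM to 205, 271 and 485 CPM (2.80 ± 0.20, adjusted p = 3.97e-08). In none of the 6 genes did the treated and non-treated libraries overlap. For *Gbp2*, *Gbp5* and *Serpina3g* the rule that took the largest rises required this.

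The promoter of each of these genes is printed 5′ to 3′ on the strand of the gene, from 250 bases before to 50 bases after the start site given by RefSeq (GRCm38.p6, the patch release of the mm10 build). They are shown because they differ in which of the motifs bound by STAT factors, by interferon regulatory factors and by NF-kB they hold. Capitals mark matches, on either strand, to GAS (TTCNNNGAA), to the core of the interferon-stimulated response element, ISRE (GAAANNGAA), and to the NF-kB motif. *Irf1* lies at chr11:53769764-53770063 (+) with a GAS match 90 bases and an NF-kB match 13 bases before the start site, and the start site used is 1 of 2 listed for the gene. *Gbp2* lies at chr3:142620413-142620712 (+) with an ISRE match at -58. *Cxcl10* lies at chr5:92348840-92349139 (-) with an ISRE match at -213 and NF-kB matches at -159 and -103. *Gbp5* lies at chr3:142496684-142496983 (+) with GAS matches at -245 and -52, an ISRE match at -164 and an NF-kB match at -77. *Serpina3g* lies at chr12:104235897-104236196 (+) with an NF-kB match at -85 and a GAS match at -33. *Ifit1* lies at chr19:34640639-34640938 (+) with ISRE matches at -109, -103 and -84, the first 2 of which overlap. Positions are those of the first base of a match.
Irf1: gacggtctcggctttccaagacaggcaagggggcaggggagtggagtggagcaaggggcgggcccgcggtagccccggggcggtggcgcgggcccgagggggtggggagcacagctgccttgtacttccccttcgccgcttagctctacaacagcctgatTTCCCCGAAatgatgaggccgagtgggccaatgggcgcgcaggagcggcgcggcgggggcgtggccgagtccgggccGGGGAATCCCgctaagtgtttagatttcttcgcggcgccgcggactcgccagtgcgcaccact
Gbp2: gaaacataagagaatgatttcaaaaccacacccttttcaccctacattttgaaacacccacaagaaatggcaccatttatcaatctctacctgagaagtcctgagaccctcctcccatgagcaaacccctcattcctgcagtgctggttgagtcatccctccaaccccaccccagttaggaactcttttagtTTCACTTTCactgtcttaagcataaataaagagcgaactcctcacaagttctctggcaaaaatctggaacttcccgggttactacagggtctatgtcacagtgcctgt
Cxcl10: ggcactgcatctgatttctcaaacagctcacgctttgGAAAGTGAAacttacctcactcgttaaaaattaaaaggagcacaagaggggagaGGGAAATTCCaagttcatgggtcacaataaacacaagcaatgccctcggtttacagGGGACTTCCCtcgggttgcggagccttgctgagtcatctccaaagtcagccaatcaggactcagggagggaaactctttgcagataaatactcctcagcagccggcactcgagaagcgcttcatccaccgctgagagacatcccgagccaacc
Gbp5: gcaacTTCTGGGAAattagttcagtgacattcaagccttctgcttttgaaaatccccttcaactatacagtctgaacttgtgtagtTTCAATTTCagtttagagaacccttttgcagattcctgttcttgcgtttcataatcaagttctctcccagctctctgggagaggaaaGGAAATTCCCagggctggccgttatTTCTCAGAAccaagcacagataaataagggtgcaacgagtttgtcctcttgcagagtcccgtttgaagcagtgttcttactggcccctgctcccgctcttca
Serpina3g: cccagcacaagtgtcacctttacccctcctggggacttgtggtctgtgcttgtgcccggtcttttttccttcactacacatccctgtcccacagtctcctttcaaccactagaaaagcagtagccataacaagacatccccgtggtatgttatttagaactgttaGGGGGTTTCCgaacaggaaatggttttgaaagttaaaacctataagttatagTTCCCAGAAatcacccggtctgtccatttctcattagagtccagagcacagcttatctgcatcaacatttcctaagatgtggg
Ifit1: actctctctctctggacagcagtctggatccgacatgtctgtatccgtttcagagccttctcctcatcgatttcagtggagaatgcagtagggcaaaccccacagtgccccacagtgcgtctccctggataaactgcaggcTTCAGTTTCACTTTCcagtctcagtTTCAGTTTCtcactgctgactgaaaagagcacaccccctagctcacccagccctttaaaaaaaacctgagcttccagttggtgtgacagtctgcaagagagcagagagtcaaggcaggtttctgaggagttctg

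Over all genes, an ISRE match stood in 8.75% of the 9430 tested genes with a promoter in the RefSeq table, in 17.6% of those that rose, in 25.9% (126 of 487) of those that rose at least 2-fold and in 33.6% (38 of 113) of those that rose at least 8-fold. Among genes that fell the share was 6.98%. The same shares for GAS were 8.4%, 12%, 15.2%, 19.5% and 3.62%, and for the NF-kB motif 6.32%, 9.53%, 12.1%, 16.8% and 4.36%. A TATA box (TATAAA, both strands) was found in 8.81% of all, 12.1% of the genes that rose and 8.6% of those that fell, and in 17.9% of genes that rose and 18.0% of genes that fell at least 2-fold. In the 35 listed GBP, immunity-related GTPase and type I interferon response genes with a promoter, ISRE matches stood in 68.6%. In the 21 listed NF-kB subunit and feedback genes, NF-kB matches stood in 47.6%. These are counts of letters in a 300-base window, not of bound sites.

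Some genes were near silent before the cytokines. Of 736 tested genes under 0.5 CPM in all 3 non-treated libraries, 182 rose, and 49 of these were at 1 CPM or more in every treated library. The filter looked at treated and control libraries too, so a gene near silent before could be tested because it rose. The 182 are thus not a share of all near-silent genes. *Serpina3f* (chr12:104214544-104221129), a neighbour of *Serpina3g* on chromosome 12, had no read in the non-treated libraries, which allows up to 0.0936, 0.103 and 0.109 CPM at 3 counts each, counting error only. With cytokines it was at 101, 80.7 and 58.9 CPM, at least 2402-fold higher when the floor is 3 counts over the 3 libraries. *Serpina3i* also had no read and reached 7.37, 4.42 and 3.32 CPM, at least 153-fold. For *Serpina3g* the ratio of scaled counts was 2183, with a 95% counting interval of 604 to 18029. The Serpina3 genes are near-identical copies, and the division of reads among them is uncertain.

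*Nos2* (chr11:78920787-78960254), the inducible nitric oxide synthase, was at 0.0312, 0.0343 and 0.145 CPM in non-treated A17.2 cells, 6 reads in all, and at 218, 273 and 259 CPM with cytokines (11.75 ± 0.21, adjusted p = 9.32e-15). The 3 treated libraries lay within a narrow band, and the fitted change ran from 11.4 to 12.7 when libraries were left out, since the non-treated level rests on few reads. *Cxcl9* (5 reads before) went to 667, 259.5 and 225 CPM and *Cxcl11* (9 reads before) to 108, 37.9 and 34.2 CPM. Like *Cxcl10*, *Cxcl9* encodes a ligand of CXCR3. GENCODE lists *Cxcl11*, named for another such ligand, as a polymorphic pseudogene, and whether its transcript gives a protein in these cells was not tested. For *Cxcl9* and *Cxcl11*, treated replicate 1 was more than 2 times either of the other 2. *Batf2*, a bZIP transcription factor induced by IFNg in macrophages, was at 0.531, 0.48 and 0.544 CPM before and 181, 182 and 165 CPM after (8.40 ± 0.15, adjusted p = 9.32e-15). It shares exon bases with *Arl2* on the other strand. *Apol6* went from 0, 0.0343 and 0.109 CPM to 68.7, 54 and 42.1 CPM, *Mpeg1*, a pore-forming protein first known from macrophages, from 0.281, 0.171 and 0.0725 CPM to 55.2, 33.1 and 40.7 CPM, and *Neurl3*, a ubiquitin ligase, from 0.749, 0.343 and 0.254 CPM to 135, 76.4 and 81.5 CPM. In none of these genes did treated and non-treated libraries overlap, but the rule that took the largest rises required this.

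**Figure D2:**
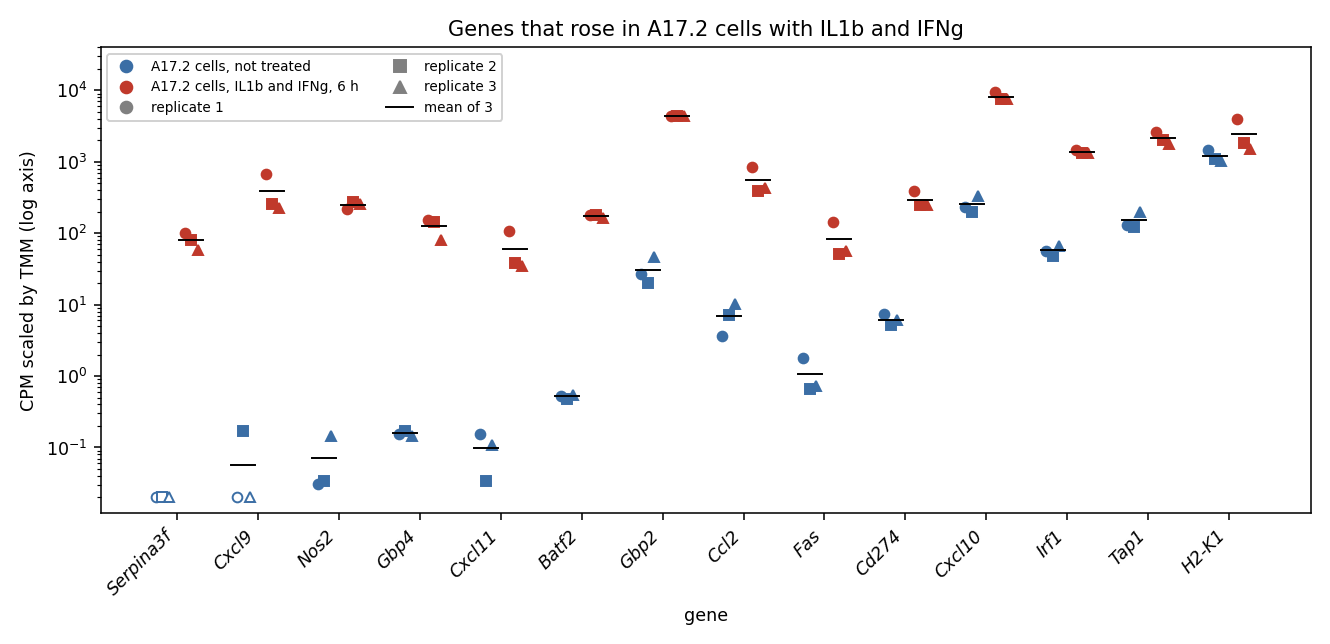
CPM scaled by TMM on a log axis (y) for 14 genes that rose (x), in non-treated A17.2 cells (blue) and after 6 h of IL1b and IFNg (red). Circles, squares and triangles are replicates 1, 2 and 3, black bars are means, and open symbols at 0.02 stand for 0 reads. Treated and non-treated libraries are apart for each gene, by the least for *H2-K1*, whose replicate 1 is the highest in both groups. For the genes taken as the largest rises the naming rule required groups that lie apart.

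The interferon receptor, JAK, STAT and SOCS list had 19 tested members, of which 9 rose and none fell (7 and none without the block), with a median log2 change of 0.28 beside -0.06 for all genes tested. *Stat2* rose by 2.36 ± 0.18 and *Stat3* by 1.99 ± 0.09 on the log2 scale. *Jak2* went from 37.4, 31.8 and 36.4 CPM to 113, 107 and 139 CPM (1.76 ± 0.09, adjusted p = 1.01e-09). The inhibitors moved as well. *Socs1*, which blocks JAK kinases at the IFNg receptor, was at 7.43, 5.32 and 5.87 CPM before and 59.9, 46.2 and 46.9 CPM after (3.04 ± 0.10, adjusted p = 8.07e-12). *Socs3*, the inhibitor best known from IL6 signalling, went from 16, 18.7 and 22 CPM to 87.2, 135 and 139.5 CPM (2.66 ± 0.11, adjusted p = 7.74e-11). *Cish* rose from 0.499, 0.412 and 0.435 CPM to 2.95, 3.3 and 4.29 CPM. Of the 9 tested interferon regulatory factor genes and their partners, 5 rose. Beside *Irf1* these were *Irf2* (log2 1.64 ± 0.11), *Irf5* (1.34 ± 0.11), *Irf7* (1.99 ± 0.19) and *Irf9* (1.03 ± 0.11). The 2 that fell were *Irf2bp2*, from 41.7, 40.2 and 41.2 CPM to 25.5, 22.5 and 27.3 CPM, and *Irf2bpl* (-0.59 ± 0.12, adjusted p = 0.00267, 0.0668 without the block), which encode IRF2-binding proteins.

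Guanylate-binding proteins and immunity-related GTPases are interferon-induced GTPases that act on the membranes of pathogen vacuoles in mouse cells. All 9 tested guanylate-binding protein genes rose, with a median log2 change of 6.78, the highest of the 35 lists. The filter dropped none of the 9 that had counts, although those near 0 before could pass it by their levels with cytokines. *Gbp4*, with 14 reads in the non-treated libraries, reached 153, 141 and 80.4 CPM (9.86 ± 0.49, adjusted p = 6.04e-10). *Gbp6* went from 2.47, 1.47 and 2.54 CPM to 296, 243 and 173 CPM (6.78 ± 0.20, adjusted p = 2.8e-12). The smallest change in the list, that of *Gbp3*, was 4.39 ± 0.25 on the log2 scale, or 21-fold. *Gbp4* shares exon bases on the same strand with *Gbp8* and *Gbp9*, and reads from these copies may have been divided among them. Of the 9 tested immunity-related GTPases 8 rose (median 5.55). *Igtp*, also called Irgm3, went from 17.5, 12.7 and 22 CPM to 1323, 1057 and 986 CPM (6.00 ± 0.20, adjusted p = 1.02e-11). *Iigp1*, which coats vacuoles of Toxoplasma and Chlamydia, went from 0.343, 0.995 and 2.47 CPM to 339, 299 and 243 CPM (7.88 ± 0.35, adjusted p = 1.82e-10). *Ifi47* rose from 4.06, 5.97 and 10.8 CPM to 284, 339 and 328 CPM (5.55 ± 0.23, adjusted p = 1.26e-10). On the same strand *Igtp* shares exon bases with *Irgm2* and *Ifi47* with *Olfr56*. *Tgtp1* and *Tgtp2*, neighbouring near-copies whose reads may be interchanged, reached 191, 168 and 109 CPM and 225, 180.3 and 128 CPM from below 4 CPM. The member that was not called, *Irgq*, is at 13.8, 11.9 and 16.1 CPM and 9.86, 13.5 and 16.3 CPM.

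All 34 tested genes of the type I interferon response list rose (32 without the block), with a median log2 change of 2.19. Most of them are also known to respond to IFNg. *Zbp1*, a sensor of Z-form nucleic acid that can start necroptosis, went from 7.52, 9.33 and 20.4 CPM to 561, 451 and 363 CPM (5.24 ± 0.33, adjusted p = 9.95e-09). *Parp14*, an ADP-ribosyltransferase, went from 16, 12.6 and 30.9 CPM to 269, 276 and 390.2 CPM (4.02 ± 0.18, adjusted p = 1.82e-10). *Uba7*, the E1 enzyme for ISG15, rose from 14.4, 8.64 and 11.6 CPM to 325, 123 and 139.7 CPM (3.97 ± 0.23, adjusted p = 4.37e-09). *Ifit3*, *Rsad2* and *Oas1b* rose by 3.66 ± 0.34, 2.80 ± 0.24 and 1.97 ± 0.16 on the log2 scale. *Oas1b*, a 2′-5′ oligoadenylate synthetase family member listed as a polymorphic pseudogene, was at 13.2, 8.78 and 12.1 CPM before and 65.3, 33.4 and 39.1 CPM after (adjusted p = 2.43e-07). The transcript of IFN beta stayed low in these libraries. *Ifnb1* had 6 reads in the non-treated libraries, was at 0.822, 0.13 and 0.0692 CPM with cytokines in overlapping groups, and its call (adjusted p = 0.0327) was lost without treated replicate 1 (adjusted p = 0.644), in 5 other fits that left out libraries, with DESeq2 (0.133) and without the block (0.25).

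All 20 tested members of the apolipoprotein L and TRIM list rose (median 2.13, 19 without the block). *Trim21*, a cytosolic antibody receptor, went from 16.4, 11.8 and 17.3 CPM to 129, 95.7 and 111 CPM (2.89 ± 0.12, adjusted p = 1.53e-10), and *Trim12a*, from a TRIM5-like mouse cluster, from 12.4, 5.97 and 7.98 CPM to 118, 49.2 and 54.6 CPM (3.03 ± 0.15, adjusted p = 8.11e-10). *Apol10b* rose from 0.156, 0.72 and 0.689 CPM to 20.3, 25.2 and 22.6 CPM (5.47 ± 0.29). Of 15 tested sensors of viral RNA and DNA, 12 rose and 1 fell. *Tmem173*, which encodes STING, was at 28.3, 27.1 and 32.7 CPM before and at 162, 153 and 166 CPM after (2.45 ± 0.10, adjusted p = 1.5e-10). *Samhd1*, which degrades dNTPs and so limits reverse transcription, went from 78.9, 92.6 and 115 CPM to 722, 889.7 and 854 CPM (3.11 ± 0.16, adjusted p = 1.19e-09). *Tlr3*, the endosomal receptor for double-stranded RNA, rose by 2.82 ± 0.13 on the log2 scale. The 1 that fell was *Mavs*, the mitochondrial adaptor of the RNA sensors, from 62.3, 65 and 71.3 CPM to 42.4, 54.9 and 49.1 CPM (-0.45 ± 0.08, adjusted p = 0.00103, 0.132 without the block).

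MHC class I molecules show peptides from the cytosol to CD8 T cells. In the class I list 20 of 23 tested members rose (13 without the block, median 1.63). *Tap1*, a subunit of the peptide transporter, went from 132, 121 and 199.6 CPM to 2634, 2024 and 1802 CPM (3.83 ± 0.19, adjusted p = 5.6e-10). *Psmb9*, an immunoproteasome subunit next to it on chromosome 17, went from 21.4, 18.3 and 26 CPM to 328, 262 and 221 CPM (3.62 ± 0.18, adjusted p = 6.04e-10), and these 2 genes share exon bases on opposite strands. *Nlrc5*, the transactivator of class I genes, rose from 56.6, 33.3 and 29.8 CPM to 675, 347 and 349.8 CPM (3.50 ± 0.11, adjusted p = 2.8e-12). *Psmb8* and *Tapbp*, the tapasin gene, rose by 2.57 ± 0.19 and 2.93 ± 0.21. *H2-K1*, a class I heavy chain, was at 1472, 1103 and 1026 CPM before and 3929, 1836 and 1496 CPM after (0.88 ± 0.15, adjusted p = 0.000462, 0.409 without the block). The light chain gene *B2m* went from 919, 557 and 627 CPM to 2462, 1132 and 962 CPM (1.03 ± 0.13, adjusted p = 3.32e-05, 0.216 without the block). In both genes replicate 1 was the highest library of its group. The order of these fold changes was not tested as a difference between genes.

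Some class II genes were near 0 before the cytokines. *Ciita*, the class II transactivator, had 2 reads in the 3 non-treated libraries and was at 2.59, 3.82 and 3.25 CPM with cytokines, a ratio of scaled counts of 139.7 with a 95% counting interval of 38.3 to 1159. *Cd74*, the invariant chain, went from 1.4, 0.583 and 0.653 CPM to 15.7, 4.03 and 4.36 CPM (3.07 ± 0.27, adjusted p = 6.09e-07). *H2-Aa*, a class II alpha chain, had 1 read before and 70 after, 1.37, 0.65 and 0.346 CPM. In the whole class II list 8 of 12 tested members rose (median 0.96), against 4 without the block, 4 without replicate 1 or without its non-treated library alone, and 5 without treated replicate 1 or treated replicate 3. Of 14 listed members 12 were tested. *Ciita* and *H2-Aa*, near 0 before, could pass the filter by their levels with cytokines, so this count and the median can lean towards genes that rose.

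In the adhesion and checkpoint list 11 of 15 tested members rose and none fell (8 without the block). *Cd274*, which encodes PD-L1, went from 7.3, 5.11 and 6.13 CPM to 390.3, 251 and 245 CPM (5.56 ± 0.11, adjusted p = 3.56e-14). *Ido1*, which degrades tryptophan, went from 0.531, 0.171 and 0.109 CPM to 21.9, 8.02 and 6.33 CPM (5.51 ± 0.28, adjusted p = 7.26e-10). *Cd47*, a signal against phagocytosis, rose by 1.54 ± 0.15. Among adhesion molecules, *Icam1* had 8 reads before and went to 15.6, 5.94 and 8.33 CPM (6.72 ± 0.32, adjusted p = 3.87e-10). *Vcam1* was already at 130.0, 202 and 219 CPM and went to 807, 575 and 743 CPM (1.94 ± 0.19, adjusted p = 1.67e-06). For *Cd274* and *Ido1*, as for *Cxcl9*, the highest treated library was replicate 1.

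Of the 27 tested NF-kB subunit and feedback genes 24 rose and none fell (15 rose without the block, 18 to 24 when libraries were left out, and 1 fell with library totals alone), with a median of 0.88. *Bcl3*, an atypical IkB protein, went from 1.75, 2.06 and 3.08 CPM to 36.2, 53 and 69.5 CPM (4.51 ± 0.13, adjusted p = 2.8e-12). *Nfkbiz*, another atypical IkB protein that is induced by IL1, went from 17.3, 12.1 and 8.27 CPM to 93.3, 122 and 131 CPM (3.23 ± 0.25, adjusted p = 1.43e-07). *Zc3h12a*, an RNase that degrades inflammatory mRNAs, went from 9.61, 4.97 and 6.49 CPM to 38.7, 40.3 and 56.9 CPM (2.69 ± 0.27, adjusted p = 2.55e-06). *Nfkbia*, which encodes IkB alpha, rose by 2.24 ± 0.15 and *Tnfaip3*, the ubiquitin-editing enzyme A20, by 2.08 ± 0.24. Among the subunits, *Nfkb1* rose by 0.88 ± 0.09, *Nfkb2* by 0.86 ± 0.12 and *Relb* by 1.09 ± 0.11. *Zfp36*, which encodes the mRNA-destabilising protein tristetraprolin, rose from 13.5, 15.6 and 20.7 CPM to 78.8, 104 and 127 CPM (2.63 ± 0.12, adjusted p = 2.45e-10).

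In the IL1 receptor pathway 8 of 17 tested members rose (4 without the block), and the 4 described here did so in every fit. The count fell to 4 or 5 without replicate 2, replicate 3, any of their libraries but non-treated replicate 3, or non-treated replicate 1. *Irak2*, a kinase-like relay below MYD88, went from 2.72, 2.13 and 2.86 CPM to 29, 35.8 and 42.6 CPM (3.79 ± 0.15, adjusted p = 5.83e-11). *Myd88* itself was at 44.9, 46 and 43.7 CPM before and 102, 135 and 131 CPM after (1.45 ± 0.11, adjusted p = 9.51e-08). *Il1rl1*, the receptor for IL33, went from 107, 80.8 and 95.9 CPM to 622, 386 and 411 CPM (2.31 ± 0.11, adjusted p = 6.72e-10). *Il18bp*, a soluble inhibitor of IL18 known as an IFNg target, rose from 3.37, 2.16 and 1.49 CPM to 38.9, 21.7 and 14.2 CPM (3.38 ± 0.17, adjusted p = 6.6e-10). *Myd88* and *Il18bp* share exon bases with genes on the other strand, and the counting is not stated to use strand.

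Of 15 listed CXC chemokine genes 7 were tested, and all 7 rose, with a median of 5.50. Of 17 listed CC and CX3C genes 10 were tested and 6 rose. *Cxcl9* and *Cxcl11*, near 0 before, passed the filter by their levels with cytokines, so these counts and the median lean towards genes that rose. *Ccl2*, which attracts monocytes, was at 3.59, 7.1 and 10.3 CPM before and 837, 386 and 429 CPM after (6.30 ± 0.43, adjusted p = 2.89e-08). *Ccl7*, its neighbour, went from 0.375, 0.652 and 1.52 CPM to 28.8, 28.9 and 30.8 CPM (5.17 ± 0.26, adjusted p = 7.36e-10). *Cxcl1*, a neutrophil attractant, went from 9.58, 5.73 and 4.24 CPM to 520.3, 202 and 196 CPM (5.50 ± 0.22, adjusted p = 6.48e-11). The treated level of *Ccl2* and *Cxcl1* in replicate 1 was about 2 times that in the others or more, while the 3 treated libraries of *Ccl7* were close together. *Ccl5*, present in resting cells at 61, 43 and 56.4 CPM, rose to 368, 146 and 181 CPM (2.06 ± 0.25, adjusted p = 1.67e-05). *Cx3cl1*, a membrane-bound chemokine that ADAM17 can shed, went from 0.375, 0.652 and 1.41 CPM to 6.97, 5.9 and 8.99 CPM (3.20 ± 0.28, adjusted p = 4.78e-07).

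Among cytokines and colony-stimulating factors 7 of 14 tested members rose and 2 fell (5 and 1 without the block). *Il15*, a growth factor for NK and memory T cells, went from 0.874, 0.617 and 1.09 CPM to 13.2, 10.7 and 13.7 CPM (3.87 ± 0.18, adjusted p = 3.87e-10). *Lif*, an IL6 family cytokine, went from 12.9, 12.7 and 13.6 CPM to 189, 90.2 and 86.5 CPM (3.12 ± 0.19, adjusted p = 6.14e-09). *Csf1*, the macrophage growth factor, went from 176, 174 and 152 CPM to 1018, 535 and 500.2 CPM (1.96 ± 0.15, adjusted p = 9.51e-08). *Tnfsf10*, which encodes TRAIL, rose from 0.25, 0.103 and 0.762 CPM to 16.4, 12.7 and 15.5 CPM (5.35 ± 0.32, adjusted p = 5.32e-09). *Il6* was low throughout, at 0.499, 0.343 and 0.145 CPM before and 6.51, 1.47 and 2.01 CPM after (3.24 ± 0.41, adjusted p = 2.94e-05). The genes that fell were *Il34* (-0.48 ± 0.10, adjusted p = 0.00254, 0.0738 without replicate 2) and *Il16*, the latter from 0.78, 1.92 and 3.12 CPM to 0.335, 0.434 and 0.692 CPM (-1.89 ± 0.33, adjusted p = 0.000807, 0.077 without the block).

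Beside *Nos2*, *Slc7a2* and *Gch1*, which feed nitric oxide synthesis, rose by less. *Slc7a2*, a cationic amino acid transporter for arginine, went from 109.7, 80.5 and 104 CPM to 356, 243 and 284 CPM (1.58 ± 0.10, adjusted p = 6.81e-09). *Gch1*, the first enzyme of tetrahydrobiopterin synthesis, went from 12.5, 11.3 and 11.9 CPM to 26.5, 24.1 and 27.9 CPM (1.14 ± 0.12, adjusted p = 5e-06). These were the only other members of the nitric oxide and arginine list to rise, 3 of 12 tested in all, while 3 fell (none without the block, 0 to 2 when libraries were left out). Of the 3 that fell, 1 did so at least 2-fold. Changes in the list ran from -1.14 to 11.8 on the log2 scale. Its median was -0.13, beside -0.06 for all genes tested, so the list as a whole did not rise.

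Of 25 listed acute phase and complement genes 17 were tested, and 15 of these rose (11 without the block), with a median of 5.18. Some, such as *Serpina3f*, passed the filter only by their levels with cytokines. *C3*, the central complement protein, went from 0.312, 0.309 and 0.435 CPM to 44.7, 8.8 and 11.1 CPM (5.81 ± 0.38, adjusted p = 1.83e-08). *C4b* went from 0.375, 0.274 and 0.326 CPM to 34.5, 17 and 12.9 CPM (6.12 ± 0.41, adjusted p = 2.62e-08). *C1s1*, a protease of the classical pathway, went from 5.81, 5.04 and 4.57 CPM to 210.1, 74.4 and 46.9 CPM (4.19 ± 0.34, adjusted p = 2.19e-07). *Lcn2*, a siderophore-binding protein, had 13 reads before and was at 32.4, 3.25 and 2.46 CPM after (6.39 ± 0.32, adjusted p = 8.11e-10). In all 4 genes treated replicate 1 was at least 2 times either of the other treated libraries.

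Of the 35 tested cell death genes 20 rose and 4 fell (14 and none without the block, 18 to 21 and 2 to 4 when libraries were left out). *Fas*, a death receptor, went from 1.78, 0.652 and 0.725 CPM to 144, 50.5 and 56.5 CPM (6.28 ± 0.15, adjusted p = 2.73e-13). *Casp4*, the sensor caspase for cytosolic lipopolysaccharide, went from 19.4, 14.7 and 12.8 CPM to 170.0, 103 and 99.8 CPM (2.97 ± 0.11, adjusted p = 4.76e-11). *Casp1* and *Gsdmd*, the inflammatory caspase and the pore protein it cuts, rose by 2.72 ± 0.18 and 1.16 ± 0.11. *Nod1*, a receptor for bacterial peptidoglycan, went from 1.03, 1.17 and 2.68 CPM to 40.7, 40.3 and 58 CPM (4.87 ± 0.21, adjusted p = 1.5e-10). *Mlkl*, the effector of necroptosis, was at 92.4, 80 and 84.2 CPM before and 246, 214 and 199.5 CPM after (1.36 ± 0.10, adjusted p = 5.66e-08). *Daxx*, which can bind FAS, rose by 1.76 ± 0.11.

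Several genes outside the immune lists also rose. *Wars*, the tryptophanyl-tRNA synthetase and the known IFNg-induced member of its family, went from 436, 539.7 and 569 CPM to 1278, 1694 and 1462 CPM (1.53 ± 0.14, adjusted p = 1.04e-06). It was 1 of 3 of 27 tested amino acid transporters and tRNA synthetases to rise (1 without the block), near the 10.6% of all genes tested, and none fell. *Slc2a1*, the glucose transporter GLUT1, went from 160.4, 235 and 232 CPM to 428, 441 and 417 CPM (1.05 ± 0.12, adjusted p = 1.1e-05), 1 of 4 risen members of 27 in the glycolysis and hypoxia list (1 without the block, 2 to 6 when libraries were left out). That count too is near the 10.6% of all genes tested, so it is no result about the list. *Hk2*, hexokinase 2, rose in each replicate pair, from 18.3, 35.5 and 42.9 CPM to 55, 116 and 167 CPM (1.75 ± 0.10, adjusted p = 4.33e-09), but not without the block (adjusted p = 0.0903), as its level differed among replicates in both groups. Of the 20 tested genes of iron handling and oxidative stress 9 rose and 4 fell (5 and none without the block, 7 to 9 and 1 to 5 when libraries were left out). *Mt2*, a metallothionein, went from 503, 244 and 194 CPM to 1603, 1154 and 922 CPM (2.06 ± 0.15, adjusted p = 4.49e-08). *Sod2*, the mitochondrial superoxide dismutase, went from 81.3, 84.3 and 87.7 CPM to 348, 288 and 278 CPM (1.84 ± 0.13, adjusted p = 2.93e-08). *Slc11a2*, an iron importer, rose by 1.69 ± 0.11 and *Slc7a11*, the cystine transporter, by 1.12 ± 0.11.

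*Notch1*, a receptor of cell-to-cell signals, went from 12, 14.7 and 24.6 CPM to 47.7, 87.5 and 93.4 CPM (2.15 ± 0.14, adjusted p = 1.21e-08). *Hes1*, a classical target of Notch, was 1 of 3 genes of the 13 in the Notch list that fell, while 4 rose (1 and 1 without the block). It went from 1.97, 2.5 and 3.26 CPM to 0.852, 1.08 and 1.11 CPM (-1.33 ± 0.23, adjusted p = 0.000663). *Id3*, a target of BMP signals, went from 11.9, 10.4 and 6.6 CPM to 38.8, 42 and 24.6 CPM (1.88 ± 0.15, adjusted p = 1.8e-07), and *Bmp2* rose by 1.47 ± 0.16. *Tgfb3* fell from 60.9, 37.8 and 63.9 CPM to 32.1, 23.1 and 31.4 CPM (-0.89 ± 0.13, adjusted p = 0.000151). In the TGF-beta and BMP list 9 of 29 tested members rose and 2 fell (4 and 1 without the block, 5 to 9 and 2 to 3 when libraries were left out). In the WNT list 5 of 27 rose and 3 fell (none without the block, 2 to 8 and 0 to 4 when libraries were left out). Beside the 10.6% and 6.94% of all genes tested, the falls in both lists are near the background.

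In the prostaglandin list 4 of 9 tested members rose and 1 fell (1 and none without the block). *Ptges*, the prostaglandin E synthase, went from 71.6, 77.2 and 79.9 CPM to 144, 108 and 112 CPM (0.67 ± 0.11, adjusted p = 0.000447). Of 15 matrix proteases and inhibitors 4 rose and 2 fell (1 and none without the block), with *Adamts4*, an aggrecan-cleaving protease, going from 4.53, 3.29 and 4.42 CPM to 15.2, 7.68 and 8.68 CPM (1.34 ± 0.18, adjusted p = 6.33e-05). In both genes treated replicate 1 was the highest library. Of 14 genes of epithelial and mesenchymal state 3 rose and 1 fell, and none passed without the block. Of all genes tested 10.6% rose and 6.94% fell, so the fall in this list is near the background.

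The genes that fell most were few and low. *Aqp5*, a water channel of secretory epithelia, went from 2.87, 8.64 and 8.74 CPM to 0.243, 0.997 and 1.11 CPM (-3.11 ± 0.44, adjusted p = 9.57e-05). *Medag*, a gene linked to adipocyte formation, went from 5.49, 10.5 and 10.5 CPM to 0.70, 3.04 and 3.11 CPM (-2.00 ± 0.29, adjusted p = 0.000131). In both, replicate 1 was the lowest library of its group. *Dusp1* and *Dusp2* encode phosphatases that switch off MAP kinases. *Dusp1* went from 15.6, 22.1 and 25.2 CPM to 5.11, 6.89 and 6.47 CPM (-1.76 ± 0.19, adjusted p = 4.5e-06) and *Dusp2* from 6.49, 3.74 and 3.37 CPM to 2.43, 1.26 and 1.04 CPM (-1.51 ± 0.24, adjusted p = 0.000256). *Dusp1* shares exon bases with *Ergic1* on the other strand. *Rgs2*, which limits signals of G protein-coupled receptors, went from 24.8, 24 and 16 CPM to 8.16, 8.37 and 5.5 CPM (-1.56 ± 0.16, adjusted p = 2.92e-06). In the immediate early and ERK feedback list 7 of 32 tested members fell and 6 rose (2 and 3 without the block, 12 and 5 with library totals alone). *Junb* was among those that rose, by 1.49 ± 0.14.

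Transcription factor genes were also among those that fell. *Tfap2c* went from 4.65, 2.37 and 3.99 CPM to 1.7, 0.65 and 1.21 CPM (-1.60 ± 0.27, adjusted p = 0.000456) and *Dlx3* from 9.43, 10.7 and 17.5 CPM to 4.23, 4.12 and 6.33 CPM (-1.33 ± 0.21, adjusted p = 0.000266). *Mxd4*, an antagonist of MYC, went from 19.5, 14.4 and 24.2 CPM to 6.97, 7.98 and 10.7 CPM (-1.19 ± 0.16, adjusted p = 5.65e-05). *Dact3*, an inhibitor of WNT signals, was at 5.52, 5.11 and 5.8 CPM before and 2.16, 1.86 and 1.76 CPM after (-1.50 ± 0.18, adjusted p = 1.68e-05), with little spread in either group. *Itgb8*, an integrin subunit that activates TGF-beta, fell by 1.32 ± 0.21 on the log2 scale, and *Pdlim2*, a ubiquitin ligase for NF-kB p65 in mouse cells, by 1.22 ± 0.11. *Slc22a23*, *Camkk1* and *S100a3* fell by 1.40 ± 0.15, 1.38 ± 0.19 and 1.23 ± 0.19. Of the 20 genes with the largest falls that the naming rule took, these 14 also passed without the replicate block.

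**Figure D3:**
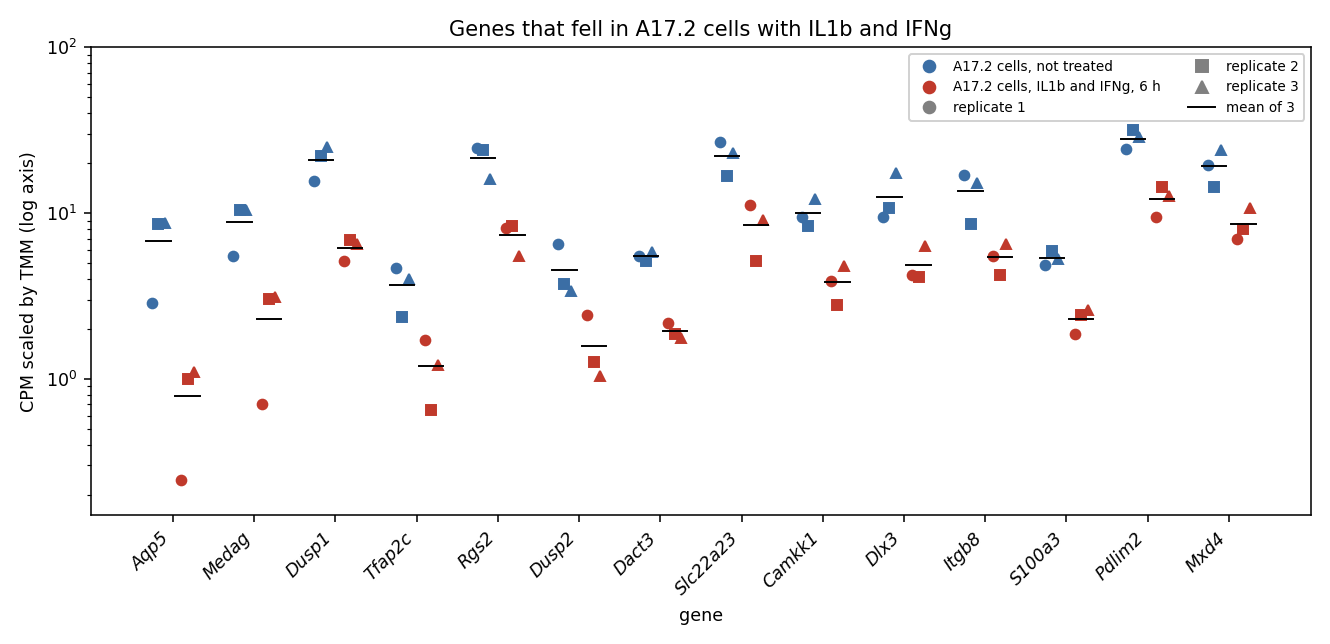
CPM scaled by TMM on a log axis (y) for 14 genes that fell (x) in A17.2 cells, non-treated (blue) and after 6 h of IL1b and IFNg (red). Circles, squares and triangles are replicates 1, 2 and 3 and black bars are means of 3. The falls span log2 1.19 (*Mxd4*) to 3.11 (*Aqp5*), and the circles of *Aqp5* and *Medag*, replicate 1, are the lowest of each group.

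Many list members did not pass the test. Of 34 cell cycle genes 28 were not called, of 27 cholesterol and fatty acid synthesis genes 23, of 19 p53 targets and CDK inhibitors 14 and of 20 genes of the unfolded protein and integrated stress response 16. Their medians lay between -0.18 and -0.11, near the -0.06 of all genes. The calls in these lists were 4 risen and 2 fallen, 0 and 4, 2 and 3, and 1 and 3. Of all genes tested 10.6% rose and 6.94% fell, so most were not called either. The counts without a call are therefore no result particular to these lists. Without the block, 2 risen and 1 fallen gene of the p53 list and none of the others passed. With library totals alone 13 cell cycle, 9 cholesterol, 8 p53 and 9 stress response genes fell, and when libraries were left out between 1 and 4 genes of each list did. *Gadd45b* and *Phlda3* stood in opposite directions, at 1.75 ± 0.16 and -0.81 ± 0.12. None of the 8 reference genes was called, among them *Eef2* (2990.3, 4485 and 5649 CPM before and 2695, 5012 and 5499 CPM after, adjusted p = 0.99) and *Polr2b* (61.6, 70.8 and 78.1 CPM and 51.6, 71.4 and 80.8 CPM, adjusted p = 0.648).

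**Figure D4:**
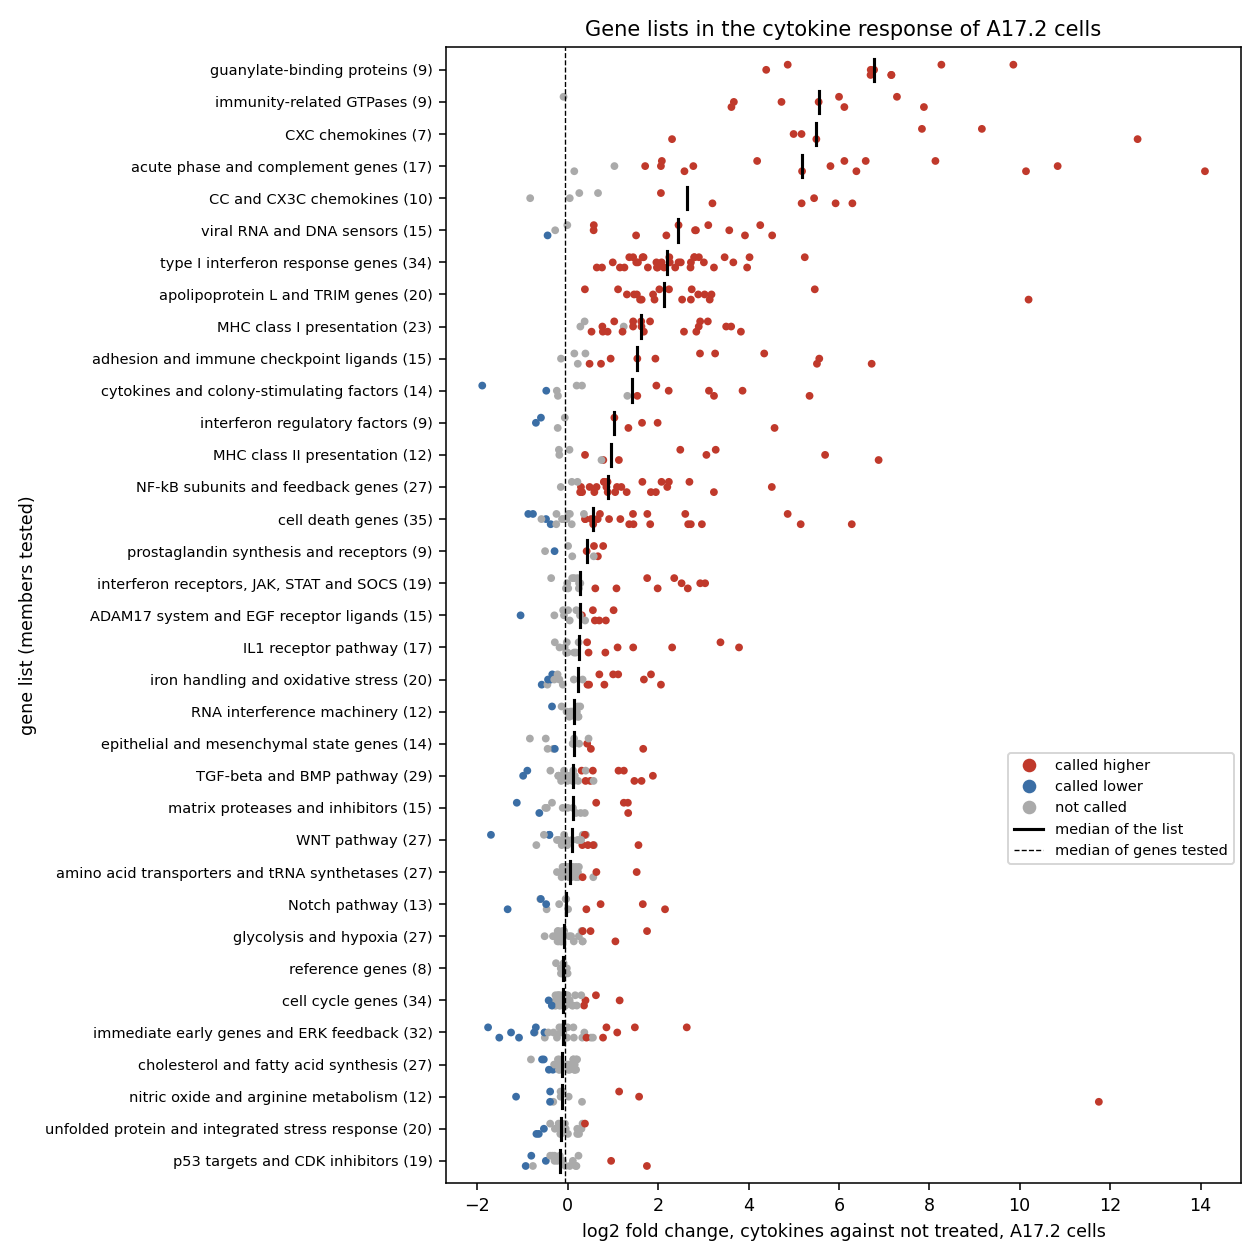
Log2 fold change with cytokines in A17.2 cells (x axis) for the tested members of 35 gene lists (y axis, number tested in brackets), ordered by median. Points are genes (red rose, blue fell, grey not called), black bars are list medians, and the dashed line is the median of all genes tested, -0.06. Guanylate-binding proteins are at the top with a median of 6.78.

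The shRNA target and a partner responded as well. *Adam17* rose by 0.60 ± 0.10 on the log2 scale (adjusted p = 0.000302, 0.0422 without the block), a 1.52-fold change. It also rose in control shRNA cells, by 0.55 ± 0.09 (adjusted p = 0.000551). The difference between the 2 responses was not called (0.05 ± 0.13, adjusted p = 0.927). *Rhbdf2*, the iRhom that carries ADAM17 to the cell surface, went from 13.4, 14.3 and 16.2 CPM to 30.8, 20.9 and 27.3 CPM (0.84 ± 0.13, adjusted p = 0.000264). *Adam10*, the related sheddase, was at 22.1, 23.5 and 31.9 CPM before and 27.6, 30.3 and 38.1 CPM after in overlapping groups. Its adjusted p was 0.0401 with the block and 0.671 without it, and the call was lost in each of the 9 fits that left out libraries, with library totals alone and with no filter. In the ADAM17 and EGF receptor ligand list 6 of 15 tested members rose and 1 fell (2 and none without the block). The one that fell was also lost in some of the fits that left out libraries. Of 12 tested genes of the RNA interference machinery none rose and 1 fell (none without the block, 0 to 2 and 0 to 1 when libraries were left out). Beside the 10.6% and 6.94% of all genes tested, these counts are no result about the list.

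Some of the risen genes were neighbours on the genome. Positions are those of GENCODE M21 (mm10) for the 14917 tested genes with an entry of the same name. There were 21 runs of at least 4 neighbouring tested genes that had all risen at least 2-fold, with 125 genes in all. Many of the runs hold members of 1 gene family. The longest held 18 genes around *Sp110*, *Sp140* and *Sp100* on chromosome 1 (chr1:85027954-85709998), with changes from 1.51 to 3.90. It holds many predicted copies, among which the division of reads is uncertain. A run of 10 TRIM genes lay on chromosome 7 (chr7:104218793-104507849, from *Trim6* to *Trim30d*). *Gbp5*, *Gbp7*, *Gbp3* and *Gbp2* lay at chr3:142493978-142638008 and *Gbp8*, *Gbp9*, *Gbp4*, *Gbp6* and *Gbp11* at chr5:105014150-105346472. *Cxcl9*, *Art3*, *Cxcl10* and *Cxcl11* lay at chr5:92321347-92414628. *Art3* (adjusted p = 0.000227, 0.0638 without the block) shares exon bases with *Cxcl10* on the other strand, so its own level cannot be told from that of *Cxcl10*. The run of *Psmb9*, *Tap1*, *Psmb8*, *Tap2*, *H2-Ab1* and *H2-Aa* in the MHC (chr17:34181987-34547651), with a butyrophilin-like pseudogene as its 7th member, joins transporter, proteasome and class II genes of antigen presentation. *H2-Ab1* was not called without the block (adjusted p = 0.188) or when non-treated replicate 1 was left out (0.0745). Exon bases on the other strand are shared by *Irf7* with *Phrf1*, *Stat3* with *Stat5a*, *Ciita* with *Dexi*, *Junb* with *Prdx2*, *Il16* with *Stard5*, *Adam17* with *Iah1* and *Nlrc5* with a noncoding gene, and on the same strand by *Tapbp* with *Zbtb22*. Of 38 tested transcribed unprocessed pseudogenes 14 rose (36.8%), against 12.9% of 11438 protein-coding genes and 1.3% of 2454 processed pseudogenes.

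The response of A17.2 cells was then set beside that of control shRNA cells by a test of the difference between the 2 fold changes. In 64 genes (0.409% of 15649) the signed log2 change was called higher in A17.2 than in control cells, and in 1, *Nab2*, lower. Of the 64, 63 rose in A17.2 cells, and the remaining 1, a gene with a clone name only, was not called there and was lower with cytokines in control cells. *Nab2* fell in A17.2 cells (log2 -0.78) and stood at 0.02 in control cells. No gene was called without the replicate block (209 genes at an unadjusted p below 0.05, against 1500 with it) or without replicate 2 (876 at an unadjusted p below 0.05), whereas DESeq2 called 117 higher and 13 lower, all 65 among them. By their means all 64 were lower in non-treated A17.2 than in non-treated control cells and 40 of them were lower with cytokines, but the resting levels enter the test that chose these genes, and for some the gap lay within the spread of the libraries. *Iigp1* was at 1.27 ± 1.09 CPM (SD, n = 3) in non-treated A17.2 cells and 21.3 ± 0.986 CPM in non-treated control cells, and with cytokines at 294 ± 48.6 and 399 ± 72.5 CPM. *Ifi47* was at 6.93 ± 3.46 and 68.1 ± 8.29 CPM before and at 317 ± 29.5 and 519 ± 48.8 CPM after. *Irf1* reached nearly the same level in both, 1368 ± 76.8 and 1390.5 ± 252 CPM, from 57.3 ± 9.06 CPM in A17.2 and 173 ± 31.1 CPM in control cells. *Cd274* was among the genes whose level with cytokines was higher in A17.2 cells by the mean, 295 ± 82.3 against 160.1 ± 51.5 CPM, from 6.18 ± 1.1 and 8.03 ± 2.21 CPM. The submitters' note on the control vector bears on these comparisons, and its part was not tested. *Nos2*, with a change of 11.75 on the log2 scale in A17.2 cells and 12.64 in control cells, was at 249.9 ± 28.6 CPM with cytokines in A17.2 and 909.5 ± 140.4 CPM in control cells. Its difference in fold change (-0.89 ± 0.71, adjusted p = 0.724) rests on 6 reads in non-treated A17.2 cells and does not show that the responses were alike. *Ccl2* with cytokines was at 551 ± 249 CPM in A17.2 and 1566 ± 225 CPM in control cells, from 7.01 ± 3.37 and 108 ± 47.7 CPM. *Ccl7* was at 29.5 ± 1.16 and 141 ± 23.4 CPM, from 0.85 ± 0.60 and 10.6 ± 3.81 CPM. Their differences in fold change, 2.42 ± 0.50 (adjusted p = 0.0501) and 1.41 ± 0.35 (adjusted p = 0.134), were not called.

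**Figure D5:**
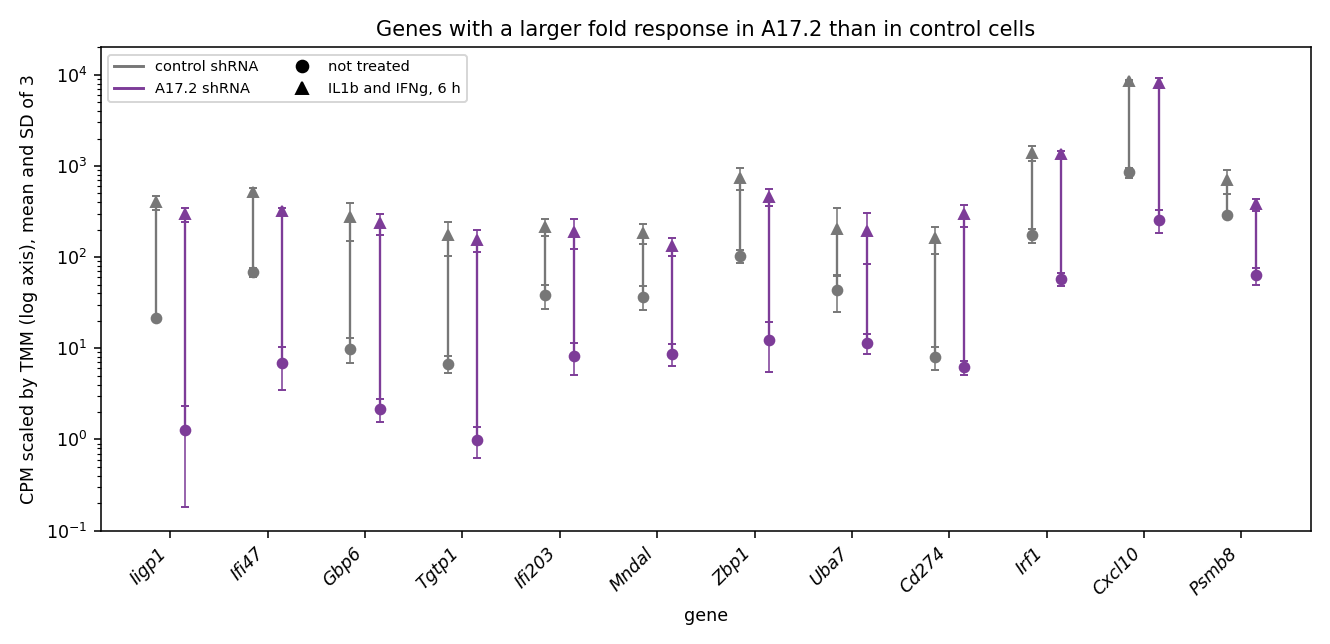
CPM scaled by TMM on a log axis (y, mean and SD of 3) for 12 of the 64 genes whose log2 change was called higher in A17.2 cells (x), in control shRNA (grey) and A17.2 cells (purple), non-treated (circles) and after 6 h of IL1b and IFNg (triangles). The purple circles lie below the grey ones for every gene, while the triangles lie closer together than the circles, except for *Cd274*.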

How the data were processed

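Poly(A) RNA of 12 samples was sequenced by the study after library preparation with an Ion Total RNA-Seq kit, and 6 of these libraries (A17.2 cells, non-treated or with IL1b and IFNg, 3 each) are described here. The authors deposited raw counts per gene on the mm10 build, one column per library. What aligner and counter they used, and whether strand was used, is not given in the sources used here. 2 further tables hold the authors' own fold changes and p-values, which were not used.

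Genes kept by edgeR filterByExpr (15649 of 43271 listed, 10997 of which had no read) were tested with edgeR 4.0.16 (R 4.3.3, limma 3.58.1) by the quasi-likelihood F test in 1 fit of all 12 libraries, with TMM scaling, the group and the replicate number as terms, and Benjamini-Hochberg adjustment over all genes tested. Calls are at an adjusted p below 0.05. The filter used all groups, so list counts and medians can hold members that passed it only by their levels with cytokines. The replicate number entered as a block because the comparison was defined as paired by number, and the labels number the replicates of each group. Libraries of 1 number deviated together from their group means (r = 0.54 to 0.85 within A17.2 cells, 0.31 to 0.85 over all 18 pairs, above the 0.1 asked for), against -0.75 to 0.46 for different numbers. Taking deviations from the mean of each group lowers r between different numbers by construction. The ranges over all pairs overlap, with 0.46 for treated replicate 2 and non-treated replicate 3 of A17.2 cells. These values therefore show little about the pairing of replicates 2 and 3. Chi-square tests of replicate pairs gave 21.7 to 250 per degree of freedom, more than counting noise. Pairs that held replicate 1 gave 84.9 to 250, and pairs of replicates 2 and 3 gave 21.7 to 37.7. Replicate 1 thus differed most from the others over all genes, not only in those named. Mitochondrial genes took 2.93% and 3.93% of counts in the A17.2 libraries of replicate 1 and 1.46% to 1.97% in the other A17.2 libraries. Fitted fold changes use a prior count of 0.125. For a group with no read the floor was 3 counts over its 3 libraries. Intervals are at the 95% level and cover counting error only. DESeq2 1.42.0 was an alternative, as were other scalings, no block, no filter, a filter of 50 counts in 3 libraries, the 6 A17.2 libraries alone, a 2-fold minimum, and leaving out libraries. Scripts were tested on simulated data. Motifs and positions were read with Python 3.11.15 (pandas 2.3.3, numpy 2.4.6), and plots drawn with matplotlib 3.10.9.

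Genes were named by a rule: 9 listed genes (*Adam17*, *Adam10*, *Nos2*, *Ccl2*, *Ccl7*, *Oas1b*, *Ifit1*, *Eef2*, *Polr2b*), the 20 largest rises and falls among called genes whose groups did not overlap and whose mean log2 CPM was 1 or more, the 10 largest rises and falls in CPM, up to 4 genes per list with the lowest adjusted p, and the 10 lowest adjusted p in the test of the difference. Of the 185 genes this takes, those described were chosen after their values were seen, as were list members and neighbours named from outside it. The 35 gene lists were chosen with earlier results of these data known. Some withheld genes are not reported here.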

Additional observations from a re-analysis of the deposited data

Results flagged for a closer look

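The fold response to cytokines differed between A17.2 and control shRNA cells for 29 of the genes named above, by a test of the difference of the 2 responses (edgeR, replicate block, adjusted over 15649 genes). Each difference is the log2 change in A17.2 cells minus that in control cells, so larger means a larger fold and not a higher level. By their means, all 64 genes called larger were lower in non-treated A17.2 than in non-treated control cells. With cytokines 40 of them were lower as well, and the resting levels enter the test. None of these calls was kept without the block or without replicate 2, and the submitters' notes call the control vector cytotoxic, a point whose part in these values was not tested. Among the immunity-related GTPases the response was larger in A17.2 cells for *Iigp1* by 3.66 ± 0.41 (adjusted p = 0.000693), *Tgtp1* by 2.65 ± 0.33 (adjusted p = 0.00158), *Ifi47* by 2.61 ± 0.28 (adjusted p = 0.000693), *Tgtp2* by 2.25 ± 0.35 (adjusted p = 0.00742), *Igtp* by 1.76 ± 0.23 (adjusted p = 0.00258) and *Irgm2* by 1.59 ± 0.22 (adjusted p = 0.00381). Among the guanylate-binding proteins it was larger for *Gbp6* by 2.03 ± 0.25 (adjusted p = 0.00147), *Gbp7* by 1.72 ± 0.30 (adjusted p = 0.0192), *Gbp5* by 1.70 ± 0.34 (adjusted p = 0.0446) and *Gbp3* by 1.65 ± 0.32 (adjusted p = 0.0311). Among genes of the type I interferon response, TRIM and apolipoprotein L lists and the Sp100 family it was larger for *Zbp1* by 2.38 ± 0.39 (adjusted p = 0.0126), *Apol10b* by 2.14 ± 0.40 (adjusted p = 0.0252), *Uba7* by 1.86 ± 0.29 (adjusted p = 0.00912), *Parp14* by 1.55 ± 0.22 (adjusted p = 0.00487), *Trim12a* by 1.40 ± 0.21 (adjusted p = 0.00544), *Sp110* by 1.25 ± 0.22 (adjusted p = 0.0225), *Sp100* by 1.15 ± 0.21 (adjusted p = 0.0256) and *Trim21* by 0.92 ± 0.17 (adjusted p = 0.0239). In antigen presentation it was larger for *Psmb9* by 1.41 ± 0.23 (adjusted p = 0.0114), *Psmb8* by 1.33 ± 0.25 (adjusted p = 0.0276), *Tap1* by 1.17 ± 0.24 (adjusted p = 0.0466) and *Nlrc5* by 0.91 ± 0.14 (adjusted p = 0.00653). Of the other genes it was larger for *Irf1* by 1.58 ± 0.20 (adjusted p = 0.00147), *Cxcl10* by 1.67 ± 0.24 (adjusted p = 0.00487), *Il15* by 1.38 ± 0.24 (adjusted p = 0.0192), *Cd274* by 1.26 ± 0.14 (adjusted p = 0.000693) and *Casp4* by 0.99 ± 0.15 (adjusted p = 0.00742). *Olfr56*, an olfactory receptor gene whose exon bases overlap those of *Ifi47*, gave 2.27 ± 0.43 (adjusted p = 0.0276). *Nab2*, a corepressor of EGR transcription factors, was the 1 gene with a lower signed change in A17.2 cells, with a difference of -0.80 ± 0.13 (adjusted p = 0.00812). Its own change with cytokines was -0.78 ± 0.09 in A17.2 and 0.02 in control cells.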

How the results depend on the processing

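The number of genes called depended on the replicate block. With no replicate block 602 genes rose and 65 fell in A17.2 cells, and none was called in the test of the difference between cell types (0 higher, 0 lower in A17.2 cells), where the common dispersion, a measure of spread, was 0.0795 in place of 0.011. A test against a 2-fold minimum gave 426 and 6. Library totals alone gave 2673 that fell in place of 1086, with a median over all genes of -0.15 on the log2 scale against -0.06 with TMM and -0.03 with DESeq2 size factors, and 3 genes with a lower log2 change in A17.2 than in control cells. Reported directions are relative to the TMM median. DESeq2 with the block gave 117 higher and 13 lower differences, and no filter gave 252 and 29. When replicates or single libraries were left out, 1166 to 1651 genes rose, 385 to 741 fell, and 0 to 155 higher and 0 to 3 lower differences were called. The lowest counts came without replicate 3 for the response (1166 and 385) and without replicate 2 for the difference. In each of these fits 972 of the genes that rose and 215 of those that fell kept their call. Across all 17 alternatives, the 2-fold minimum included, 338 and 5 did. No called gene of the response changed sign. The cause of these shifts was not tested. The counts of genes with few reads in non-treated cells, such as *Nos2*, limit their fold changes. The SE covers these libraries only.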
